A study of Mus musculus with 6 samples.

Results

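The neurotrophins Bdnf and Ntf3, the Trk receptors Ntrk2 and Ntrk3, the shared low-affinity receptor Ngfr and the sorting receptor Sort1 were described in RNA from mouse lateral amygdala, a region needed for fear memory. The 6 genes were chosen by their symbols out of 50383 gene IDs in the deposited tables, and each was found in all 6 libraries. The mice were males of a 129xC57BL/6 hybrid strain, 2 to 3 months old. There were 3 groups of 2 libraries: control, scrambled siRNA, a small interfering RNA whose sequence is shuffled, and Baf53b siRNA (directed at Actl6b, which encodes the neuronal chromatin remodelling subunit BAF53b), the last injected 1 day after training. The labels do not state what the control mice received or when the scrambled siRNA was given. They mention tissue from 4 mice without saying whether a library is a pool, so p-values measure only the spread between these libraries, which may be technical.

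Neurotrophins are secreted as precursors and cleaved to mature dimers. BDNF signals mainly through TrkB (the Ntrk2 product) and neurotrophin-3 mainly through TrkC (the Ntrk3 product), while the low-affinity receptor encoded by Ngfr binds all of the family and, with sortilin (the Sort1 product), the precursors. In the amygdala, BDNF and TrkB are known for their part in synaptic plasticity and in the storage of fear memory. Bdnf transcription starts at several alternative first exons and responds to neuronal activity.

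Levels are in FPKM (fragments scaled to transcript length and library depth), which allows levels of different genes to be compared within a library. Read counts were not used. The deposited confidence intervals implied a depth of 6.43 M to 10.7 M gene fragments per library, lowest and highest in the 2 scrambled siRNA libraries, if their width is taken as counting error alone. Mitochondrial genes took between 15.02% and 29.5% of the summed FPKM. The targeted transcript Actl6b lay between 39.6 and 44.1 FPKM in all 6 libraries, the values labelled Baf53b siRNA being 42.8 and 39.6 FPKM, so directions below refer to the libraries as labelled. All 9 markers of lateral amygdala excitatory neurons were at a mean of 1 FPKM or more. Their summed level was 2144 and 2054 FPKM in control, 2342 and 2024 with scrambled siRNA and 2266 and 1833 with Baf53b siRNA. Camk2a alone was at 1042 and 978 FPKM in control, so the sum says little about its lower members. Of these, Rspo2 was at 0.963 and 3.36 FPKM in control, 2.096 and 3.41 with scrambled siRNA and 1.64 and 1.32 with Baf53b siRNA. In control, Neurod6 was at 24.45 and 37.05 FPKM, while Tbr1 (18.8 and 19.5) and Satb1 (26.7 and 26.9) differed less. Whether the dissection differed between libraries was not tested. Of 8 basal forebrain cholinergic markers, only Ecel1 reached a mean of 1 FPKM, and Chat, the acetylcholine-synthesizing enzyme, lay between 0 and 0.119 FPKM.

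The FPKM tables give 1 value per gene, summed over its start sites and isoforms. For Bdnf the annotation lists 11 transcripts, and RefSeq (GRCm38.p6) gave 7 windows of 250 bases before a start site. One of them is shown because CREB, the activity-regulated activator of Bdnf, is among the regulators described further on. It lies on the plus strand at chr2:109692186-109692435. Capitals mark TGACG read on the opposite strand (CGTCA), the shorter form of the cAMP response element, whose first capital stands 35 bases before the start site.
Bdnf: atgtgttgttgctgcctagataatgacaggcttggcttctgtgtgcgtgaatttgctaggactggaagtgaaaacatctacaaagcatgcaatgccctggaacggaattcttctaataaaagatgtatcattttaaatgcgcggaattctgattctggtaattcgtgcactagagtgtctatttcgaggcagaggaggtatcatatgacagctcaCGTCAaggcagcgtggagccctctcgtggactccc

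RefSeq windows were matched for 4 of the 6 genes, 11 windows in all. TGACG on either strand was present in 1 of these 11, and in 17.8% of 32851 windows of the same length. The full element TGACGTCA, which contains the shorter form, was present in 0 of the 11 and in 1.55% of all windows. These are matches of letters, and the gene-level FPKM do not tell which start site was used.

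The 6 genes covered a wide range of levels that kept 1 order in every library. Ntrk2 was highest with a mean of 101 FPKM over the 6 libraries, followed by Sort1 at 69.4, Ntrk3 at 22.9, Bdnf at 3.40, Ntf3 at 1.45 and Ngfr at 0.209 FPKM. No neighbours in this order overlapped: the lowest Ntrk2 value of 91.9 FPKM lay above the highest Sort1 value of 77.8 FPKM, and the lowest Bdnf value of 2.69 FPKM above the highest Ntf3 value of 1.86 FPKM. Among 12533 protein-coding genes at a mean of 1 FPKM or more, 94.8% lay below Ntrk2, 91.9% below Sort1, 72.5% below Ntrk3, 18.9% below Bdnf and 4.77% below Ntf3. Both Trk receptors and Sort1 thus stood above the 2 ligands, and the receptor Ngfr stood below them.

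**Figure D1:**
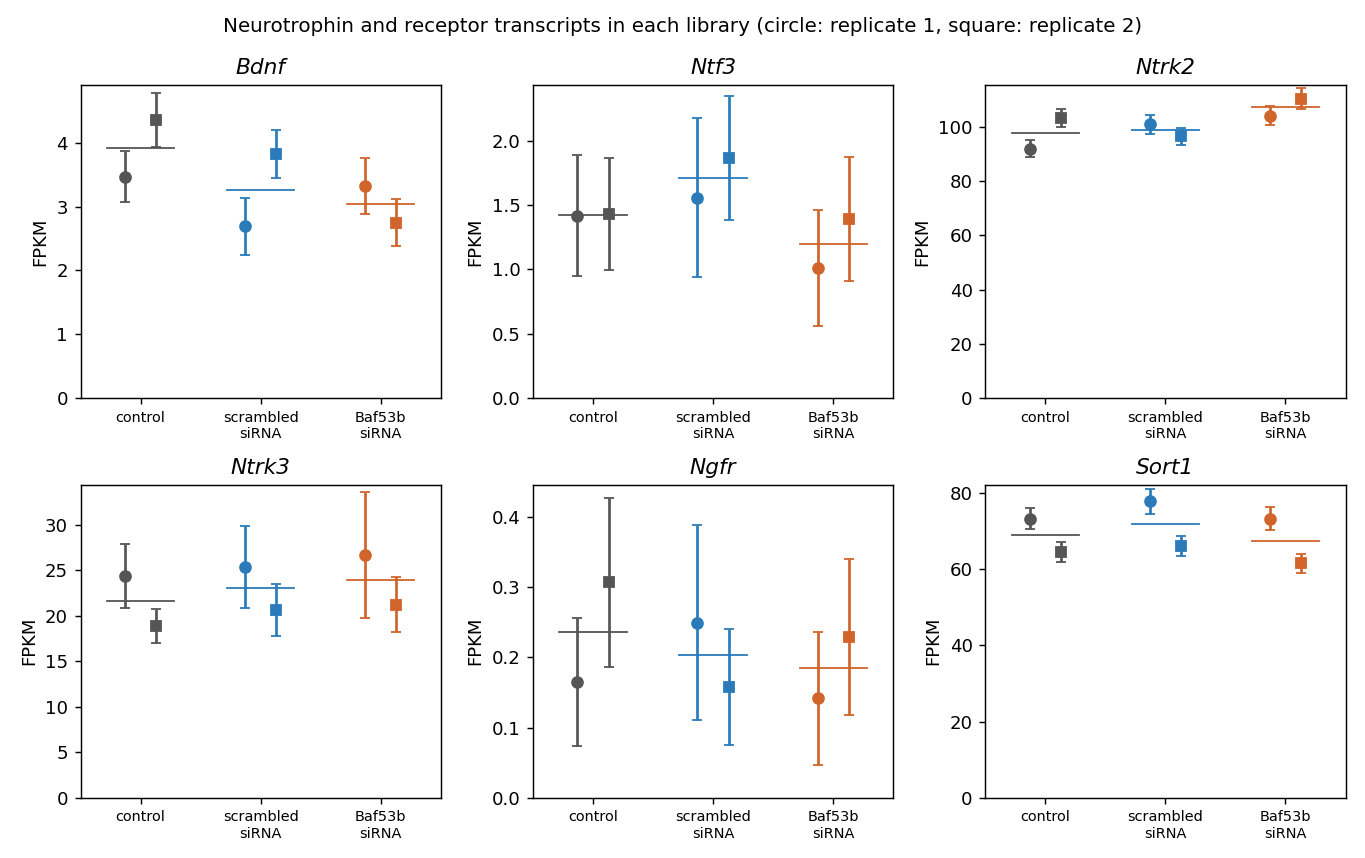
FPKM of each gene (vertical axis, starting at 0) in the 2 libraries of control, scrambled siRNA and Baf53b siRNA; circles are replicate 1, squares replicate 2, vertical bars the deposited confidence interval and horizontal lines group means. The Baf53b siRNA libraries stand above the 4 others for Ntrk2 (104 and 110 FPKM) and below them for Ntf3 (1.01 and 1.39 FPKM), while the intervals of Ntf3 and Ngfr overlap widely.

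Of the ligands, Bdnf (ENSMUSG00000048482.14, mm10 chromosome 2, 109674700 to 109727007, plus strand, protein-coding) encodes brain-derived neurotrophic factor. It stood at 3.47 and 4.36 FPKM in control, 2.69 and 3.83 with scrambled siRNA and 3.32 and 2.75 with Baf53b siRNA. The Baf53b siRNA values lay between both scrambled values and below both control values. Group means were 3.92 ± 0.626, 3.26 ± 0.802 and 3.04 ± 0.405 FPKM (SD, n = 2 each), from 150 to 422 implied fragments per library. The lowest value, scrambled siRNA replicate 1, came from the library with the fewest fragments.

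On the log2(FPKM + 1) scale, which understates differences of genes at low FPKM, Bdnf differed by -0.07 between Baf53b siRNA and scrambled siRNA (SE 0.20, 95% interval -0.54 to 0.40, limma adjusted p = 1). The difference from control was -0.28 for Baf53b siRNA (SE 0.20, 95% interval -0.75 to 0.19) and -0.21 for scrambled siRNA (SE 0.20, 95% interval -0.68 to 0.25), both at a limma adjusted p of 1. None of the 3 differences passed the test. The last 2 share the control libraries.

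Ntf3 (ENSMUSG00000049107.13, chromosome 6, 126101412 to 126166910, minus strand, protein-coding) encodes neurotrophin-3. Its level was 1.42 and 1.43 FPKM in control, 1.56 and 1.86 with scrambled siRNA and 1.01 and 1.39 with Baf53b siRNA. The groups did not overlap: Baf53b siRNA was lowest, control intermediate and scrambled siRNA highest. Depending on the pair of groups, 18.3% to 23.8% of all genes tested did not overlap either. The share with all groups separate was not counted, so this order is not read as a result about Ntf3. The means were 1.42 ± 0.00879, 1.71 ± 0.217 and 1.20 ± 0.268 FPKM (SD, n = 2 each). Only 20 to 60 implied fragments stood behind each value, and the deposited interval reached from 25.8% to 44.7% of the value on either side, so that the intervals of all 6 libraries overlapped.

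Between Baf53b siRNA and scrambled siRNA, Ntf3 differed by -0.30 (SE 0.17, 95% interval -0.71 to 0.11, unadjusted p = 0.123, limma adjusted p = 1). Against control it was -0.14 (SE 0.17) for Baf53b siRNA and 0.16 (SE 0.17) for scrambled siRNA, each at a limma adjusted p of 1. The Ntf3 values of the Baf53b siRNA libraries thus lay below those of the 4 others by an amount not detectable as a difference at this depth and number of libraries. The ratio of Bdnf to Ntf3 was 2.45 and 3.05 in control, 1.73 and 2.05 with scrambled siRNA and 3.29 and 1.98 with Baf53b siRNA, with overlap between Baf53b siRNA and each other group.

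Of the receptors, Ntrk2 (ENSMUSG00000055254.14, chromosome 13, 58806596 to 59133970, plus strand, protein-coding) encodes TrkB. Its level was 91.9 and 103 FPKM in control, 101 and 96.6 with scrambled siRNA and 104 and 110 with Baf53b siRNA. Both Baf53b siRNA libraries lay above all 4 others, the nearest being control replicate 2. Means were 97.6 ± 8.05, 98.8 ± 3.08 and 107 ± 4.41 FPKM (SD, n = 2 each), from 3237 to 3652 implied fragments. Those 2 extremes belong to the scrambled siRNA libraries, at an implied depth of 6.43 M and 10.7 M. The interval widths of Ntrk2 thus did not follow depth and are not read as fragment counts. Ntrk2 was the least variable of the 6 genes, with a coefficient of variation of 6.32% over the 6 libraries.

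Ntrk2 differed by 0.12 between Baf53b siRNA and scrambled siRNA (SE 0.13, 95% interval -0.20 to 0.44, limma adjusted p = 1) and by 0.14 between Baf53b siRNA and control (SE 0.13, 95% interval -0.18 to 0.46, limma adjusted p = 1). The latter value was 0.0550 when scaled to genes outside the mitochondrial chromosome and 0.0526 without control replicate 1. Scrambled siRNA and control differed by 0.02 (SE 0.13, limma adjusted p = 1), a difference whose sign changed under 4 other scalings. The annotation lists 10 Ntrk2 transcripts, 7 of them protein-coding. TrkB is made as a full-length kinase in neurons and as a truncated form abundant in astrocytes, and these forms are not separated by the gene-level FPKM.

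Markers of reactive astrocytes differed between the same groups. The summed FPKM of that list was 54.8 and 61.0 in control, 109 and 96.0 with scrambled siRNA and 299 and 330 with Baf53b siRNA, with 2 of its 7 tested genes called higher in Baf53b siRNA than with scrambled siRNA and 6 of 7 called higher than in control (limma). Gfap, the intermediate filament of reactive astrocytes, was at 16.9 and 18.3 FPKM in control, 45.1 and 47.3 with scrambled siRNA and 170 and 178 with Baf53b siRNA. The list of general astrocyte markers summed to 837 and 925 FPKM in control, 965 and 889 with scrambled siRNA and 957 and 950 with Baf53b siRNA, with 1 of 9 genes (the water channel Aqp4) called higher against control. No gene of these lists was at 0 in all libraries. Their part in the Ntrk2 values was not tested, and in bulk tissue more cells of a type cannot be told apart from more RNA per cell.

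Ntrk3 (ENSMUSG00000059146.12, chromosome 7, 78175959 to 78738012, minus strand, protein-coding) encodes TrkC. It was at 24.4 and 18.9 FPKM in control, 25.4 and 20.6 with scrambled siRNA and 26.7 and 21.2 with Baf53b siRNA. All 3 groups overlapped, and within each group the library numbered 1 was the higher. Among the libraries numbered 1, and likewise among those numbered 2, control was lowest and Baf53b siRNA highest, although the labels do not say that a number marks paired libraries. The share of all genes with this order was not counted, so it is not read as a result about Ntrk3. The means were 21.6 ± 3.87, 23.0 ± 3.37 and 23.9 ± 3.86 FPKM (SD, n = 2 each). Although Ntrk3 was well above Bdnf in level, its intervals reached 9.79% to 25.9% of the value on either side. As counting error alone this width would imply 60 to 418 fragments. The 60 belong to the highest value (Baf53b siRNA replicate 1) and the 418 to the lowest (control replicate 2). The implied depth of these libraries was 7.66 M and 10.3 M, so the widths are not read as fragment counts for Ntrk3.

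Ntrk3 differed by 0.05 between Baf53b siRNA and scrambled siRNA (SE 0.19, 95% interval -0.40 to 0.51), by 0.14 between Baf53b siRNA and control (SE 0.19) and by 0.09 between scrambled siRNA and control (SE 0.19), with a limma adjusted p of 1 each time. Ntrk2 exceeded Ntrk3 by 3.77 and 5.47 times in control, 3.97 and 4.68 times with scrambled siRNA and 3.90 and 5.20 times with Baf53b siRNA. The Baf53b siRNA ratios lay within the range of the control ratios. An antisense gene within Ntrk3, Gm9885, was at 0.499 to 0.862 FPKM; the library kit keeps strand, but whether the authors' estimation used it is not given in the sources used here.

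Ngfr (ENSMUSG00000000120.6, chromosome 11, 95568818 to 95587735, minus strand, protein-coding) encodes the low-affinity receptor shared by the neurotrophins, a protein best known in the brain from basal forebrain cholinergic neurons. It was at 0.165 and 0.307 FPKM in control, 0.250 and 0.158 with scrambled siRNA and 0.142 and 0.229 with Baf53b siRNA, from 9 to 26 implied fragments. All 3 groups overlapped. The mean stayed under 1 FPKM, so Ngfr was not among the genes tested. The log2 differences, -0.02 between Baf53b siRNA and scrambled siRNA, -0.06 between Baf53b siRNA and control and -0.04 between scrambled siRNA and control, lay within the spread between libraries of a group (0.09). Beside it, the cholinergic markers summed to 2.95 and 2.94 FPKM in control, 2.60 and 2.47 with scrambled siRNA and 4.40 and 2.62 with Baf53b siRNA. Most of each sum was Ecel1, at 2.02 and 2.09 FPKM in control, 1.62 and 1.68 with scrambled siRNA and 3.55 and 1.73 with Baf53b siRNA.

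Sort1 (ENSMUSG00000068747.14, chromosome 3, 108284082 to 108361511, plus strand, protein-coding) encodes sortilin, which carries neurotrophin precursors within the cell and binds them at its surface. Its level was 73.3 and 64.6 FPKM in control, 77.8 and 66.2 with scrambled siRNA and 73.2 and 61.6 with Baf53b siRNA. All groups overlapped, and the library numbered 1 was again the higher in each. Means were 68.9 ± 6.17, 72.0 ± 8.24 and 67.4 ± 8.23 FPKM (SD, n = 2 each), from 2274 to 2648 implied fragments. As for Ntrk2, these hardly followed depth (2274 and 2454 in the scrambled siRNA libraries) and are not read as fragment counts.

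Sort1 differed by -0.09 in Baf53b siRNA against scrambled siRNA (SE 0.16, 95% interval -0.47 to 0.28), by -0.03 between Baf53b siRNA and control (SE 0.16) and by 0.06 between scrambled siRNA and control (SE 0.16), each at a limma adjusted p of 1. The difference between the libraries of 1 group exceeded the difference between group means. Sort1 and Ntrk3 shared the pattern of a higher library 1 in all 3 groups with 37.1% of the 14663 genes tested, while 11.4% showed the reverse. The share of mitochondrial FPKM went the other way in every group, with 19.4% and 29.5% in control, 15.02% and 26.9% with scrambled siRNA and 19.3% and 22.8% with Baf53b siRNA; its part in the pattern was not tested.

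Across the 3 comparisons, 0 of the 15 tests of the 5 genes that reached a mean of 1 FPKM passed an adjusted p of 0.05 (limma, Benjamini-Hochberg over all genes tested), and 0 had an unadjusted p below 0.05. Over all 14663 genes the share called was 0.123% (18 genes) for Baf53b siRNA against scrambled siRNA, 1.23% (181 genes) for Baf53b siRNA against control and 0% for scrambled siRNA against control. With 18 or 181 genes called in all, a count of 0 among 5 is near this background. At an unadjusted p below 0.05 there were 444, 736 and 325 of the 14663 genes in these 3 comparisons.

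**Figure D2:**
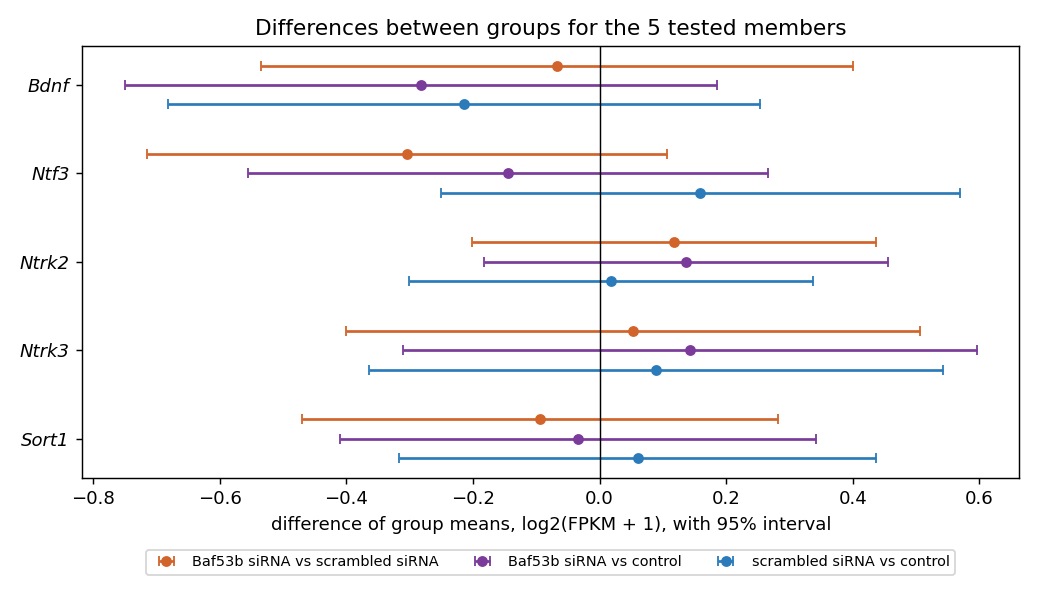
Difference of group means on the log2(FPKM + 1) scale (horizontal axis) for the 5 tested genes in the 3 comparisons, with the 95% interval of the limma fit as bars. All 15 intervals include 0; the lowest estimate is Ntf3 at -0.30 with Baf53b siRNA against scrambled siRNA, and the highest lie at 0.16 or below.

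Non-overlapping libraries were common in this design and are read against all genes. Between Baf53b siRNA and scrambled siRNA, 2 of the 5 tested genes did not overlap (Ntrk2 higher, Ntf3 lower), as did 22.1% of all genes tested in either direction. Between Baf53b siRNA and control, 3 of the 5 did not overlap (Ntrk2 higher, Bdnf and Ntf3 lower) against 23.8% of all genes, and between scrambled siRNA and control 1 of the 5 (Ntf3 higher) against 18.3%. Both Baf53b siRNA libraries lay above all 4 others for Ntrk2 and for 8.03% of genes, and below all 4 others for Ntf3 and for 3.07% of genes.

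Exact two-sided permutation tests of mean FPKM, Baf53b siRNA (n = 2) against the 4 other libraries, gave p = 0.133 for Ntf3 and p = 0.133 for Ntrk2. They gave p = 0.4 for Bdnf, 0.533 for Ntrk3, 0.6 for Ngfr and 0.533 for Sort1 in the same exact test. The smallest p possible with 2 libraries against 4 is 0.0667, and with 2 against 2 it is 0.333, so these tests could not pass 0.05.

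The ligand-to-receptor balance was also set out by library. Ntrk2 exceeded Bdnf by 26.5 and 23.7 times in control, 37.5 and 25.2 times with scrambled siRNA and 31.3 and 40.1 times with Baf53b siRNA. Both Baf53b siRNA ratios lay above both control ratios, while they overlapped with scrambled siRNA. The order against control follows from the Ntrk2 and Bdnf values already given and adds nothing to them. The ratio of Sort1 to Ntrk2 was 0.797 and 0.625 in control, 0.771 and 0.685 with scrambled siRNA and 0.703 and 0.558 with Baf53b siRNA, with overlap between all groups.

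The genes whose levels followed each member most closely over the 6 libraries are a description, since a profile of 6 values was compared with about 8800 others that share library, depth and mitochondrial share. For Bdnf these were Ifrd1 (r = 0.992), Casc4 and Cdh11, and for Ntf3 Cpeb3 (r = 0.959), Ccdc92 and Ttyh1. Ntrk2 was followed by Dbi (r = 0.995), Slain2 and Anxa5. Ntrk3 was followed by Dip2a (r = 0.999), Ptprf and Zdhhc23, Sort1 by Fto (r = 0.999), Fig4 and Zcchc18, and Ngfr by Fezf2 (r = 0.970), Smc1a and Mxi1. Among the 6 genes themselves, the highest correlation was that of Ntrk3 with Sort1 (r = 0.84).

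The other genes of the pathway were taken as 7 lists with 128 names, of which 113 genes were tested. Against scrambled siRNA 0 of 113 were called, with 4 higher and 1 lower at an unadjusted p below 0.05 (444 of all 14663 genes in either direction), and the median difference was -0.0022 where that of all genes was 0.0026. Against control 1 was called higher and 0 lower, with 7 higher and 1 lower at the unadjusted level (736 of all genes; median 0.035, all genes 0.038). In scrambled siRNA against control 0 were called, with 1 higher and 0 lower at the unadjusted level (325 of all genes; median 0.044, all genes 0.041). The median pathway gene therefore lay close to the median of all genes. The tested genes named below were picked for small p-values, so separation between groups is to be expected among them. Both Baf53b siRNA libraries lay above all others for Mmp2, Shc1, Plcg2, Adam17, Prkcd, Rps6ka1, Carf and Fos, as for 8.03% of all genes tested. Both lay below all others for Cadps2 and Cort, as for 3.07% of all genes tested.

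**Figure D3:**
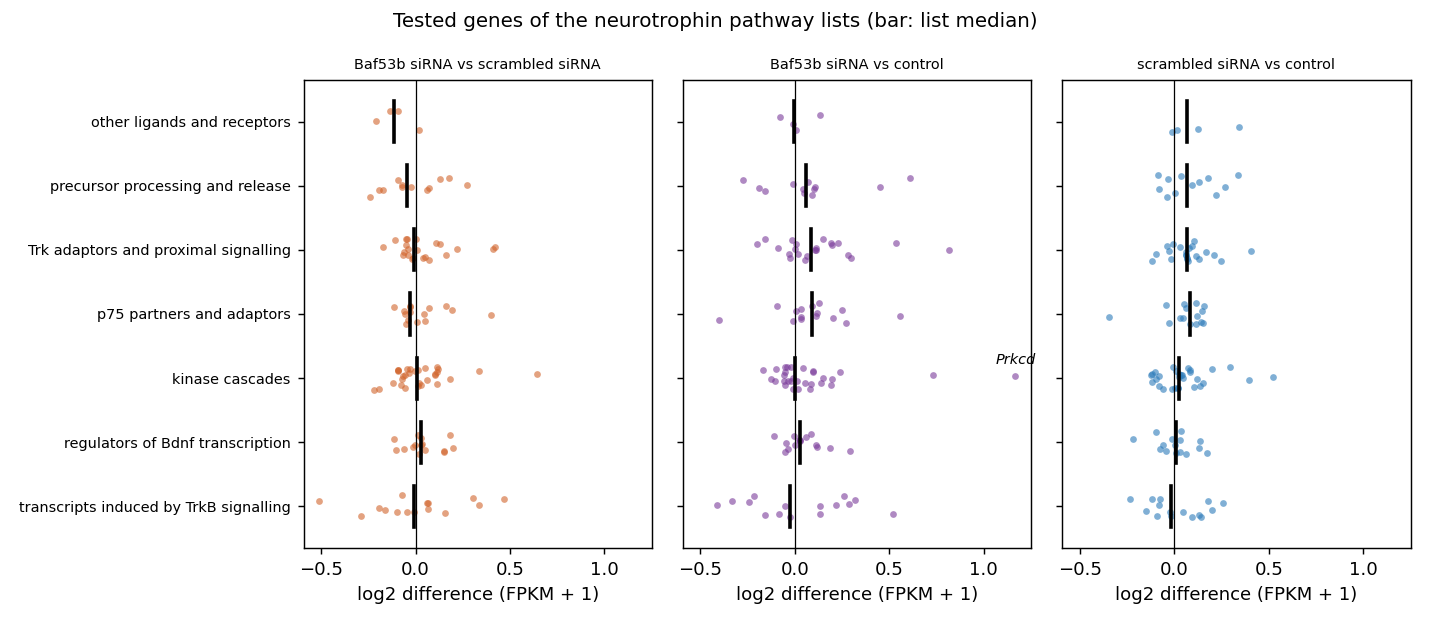
Difference on the log2(FPKM + 1) scale (horizontal axis) of each tested gene (points, spread vertically for visibility) in 7 pathway lists for the 3 comparisons; black bars are list medians and the named gene passed the adjusted threshold. Most points lie near 0, and Prkcd stands apart at 1.17 with Baf53b siRNA against control.

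Among the remaining ligands and receptors, neurotrophin-4 (Ntf5), a further ligand of TrkB, lay between 0 and 0.152 FPKM and was too low to be tested. The 4 sortilin relatives were tested and 0 were called: Sorcs1 stood at 8.24 and 7.76 FPKM in control, 11.8 and 9.20 with scrambled siRNA and 9.39 and 8.36 with Baf53b siRNA, and Sorl1 and Sorcs2 had means of 20.6 and 13.6 FPKM.

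For the processing and release of precursors, 12 of 19 listed genes were tested and 0 called in any comparison. Mmp2, a secreted metalloproteinase, had the largest estimate against control at 0.61 (SE 0.19, limma adjusted p = 0.477), from 0.821 and 0.617 FPKM in control to 1.74 and 1.51 with Baf53b siRNA, with 1.45 and 0.923 in scrambled siRNA. Furin, a convertase of the secretory pathway, was at 9.26 and 6.74 FPKM in control, 12.3 and 7.68 with scrambled siRNA and 10.7 and 11.7 with Baf53b siRNA. Cadps2, which promotes release from dense-core vesicles, was at 25.7 and 25.2 FPKM with Baf53b siRNA and 31.1 and 27.6 in scrambled siRNA (difference -0.19, SE 0.13, limma adjusted p = 1).

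Of the adaptors and proximal signalling proteins of Trk receptors, 22 of 23 were tested and 0 were called. The adaptor Shc1 was at 1.82 and 1.71 FPKM in control, 1.84 and 2.16 with scrambled siRNA and 3.05 and 2.96 with Baf53b siRNA. Shc1 thus lay above all 4 others in both Baf53b siRNA libraries, as did 8.03% of all genes tested. Its difference was 0.53 against control (SE 0.16, limma adjusted p = 0.377) and 0.42 against scrambled siRNA (SE 0.16, limma adjusted p = 1). Plcg2, a phospholipase typical of blood-derived cells and microglia, was at 1.13 and 0.822 FPKM in control, 1.96 and 1.30 with scrambled siRNA and 2.80 and 2.15 with Baf53b siRNA (0.81 against control, SE 0.20, limma adjusted p = 0.230). Microglial markers summed to 282 and 270 FPKM in control, 458 and 454 with scrambled siRNA and 804 and 639 with Baf53b siRNA, with 7 of 10 called higher in Baf53b siRNA than in control and 0 of 10 called in the other comparisons. The list of infiltrating leukocyte markers summed to 7.65 and 5.99 FPKM in control, 26.4 and 25.3 with scrambled siRNA and 257 and 177 with Baf53b siRNA, with 1 of its 4 tested genes called higher than with scrambled siRNA and 3 of 4 called higher than in control. The part of these cells in the Plcg2 and Shc1 values was not tested. Plcg1, the phospholipase recruited by TrkB, had a mean of 16.2 FPKM and a difference of 0.25 between scrambled siRNA and control (SE 0.22, limma adjusted p = 1).

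Of the partners of the low-affinity receptor, 15 genes were tested and 0 were called. Adam17, a protease that sheds its extracellular part, was at 3.81 and 3.53 FPKM in control, 4.12 and 4.30 with scrambled siRNA and 5.61 and 6.13 with Baf53b siRNA (0.56 against control, SE 0.14, limma adjusted p = 0.260). Both Baf53b siRNA libraries again lay above the others, as for 8.03% of all genes tested. Ndn, encoding the growth suppressor necdin, was at 56.9 and 43.5 FPKM in control, 46.4 and 32.6 with scrambled siRNA and 41.1 and 34.0 with Baf53b siRNA (-0.40 against control, SE 0.22, limma adjusted p = 1). Tnfrsf19, a related receptor, had a mean of 11.8 FPKM and a difference of 0.19 against scrambled siRNA (SE 0.17, limma adjusted p = 1).

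All 30 kinase cascade genes were tested, and 1 was called. Prkcd, protein kinase C delta, was at 3.14 and 2.46 FPKM in control, 4.51 and 4.37 with scrambled siRNA and 6.28 and 8.93 with Baf53b siRNA. It rose by 1.17 with Baf53b siRNA against control (SE 0.20, limma adjusted p = 0.0475), while the difference was 0.64 against scrambled siRNA (SE 0.20, limma adjusted p = 0.861). The call was lost in 14 of 16 alternative settings, chosen for this gene after its values were seen, with limma adjusted p between 0.0425 and 0.321. Prkcd also marks neurons of the central amygdala, and the list of striatal and central amygdala markers, of which it is 1 of 8, summed to 154 and 155 FPKM in control, 154 and 151 with scrambled siRNA and 172 and 143 with Baf53b siRNA. Rps6ka1, a ribosomal S6 kinase downstream of ERK, was at 4.89 and 3.36 FPKM in control, 5.89 and 5.45 with scrambled siRNA and 8.61 and 6.35 with Baf53b siRNA (0.73 against control, SE 0.21, limma adjusted p = 0.353).

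Of the regulators of Bdnf transcription, 15 of 17 were tested and 0 called. Creb1, which binds the cAMP response element, was at 10.6 and 11.8 FPKM in control, 9.99 and 8.99 with scrambled siRNA and 12.01 and 9.87 with Baf53b siRNA. Carf, a calcium-response factor first described on a Bdnf promoter, was at 6.47 and 5.89 FPKM in control, 6.70 and 7.09 with scrambled siRNA and 7.48 and 8.06 with Baf53b siRNA (0.29 against control, SE 0.14, limma adjusted p = 1). Usf1 and Bhlhe40, both basic helix-loop-helix factors, had means of 48.0 and 18.7 FPKM and limma adjusted p of 1 in all 3 comparisons.

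Of 16 transcripts known to be induced downstream of TrkB or by neuronal activity, 15 were tested and 0 were called. Fos, an immediate early gene, was at 3.42 and 2.71 FPKM in control, 3.58 and 2.83 with scrambled siRNA and 5.21 and 4.41 with Baf53b siRNA (0.47 against scrambled siRNA, SE 0.18, limma adjusted p = 1). Both Baf53b siRNA libraries lay above all others for Fos, as for 8.03% of all genes tested. Cort, the neuropeptide cortistatin, was at 1.79 and 2.28 FPKM in control, 2.18 and 2.28 with scrambled siRNA and 1.16 and 1.39 with Baf53b siRNA (-0.51 against scrambled siRNA, SE 0.17, limma adjusted p = 1). Cort lay below all others in both Baf53b siRNA libraries, as did 3.07% of all genes tested. Vgf, a secreted peptide precursor, was at 45.8 and 49.1 FPKM in control, 43.0 and 37.5 with scrambled siRNA and 47.2 and 29.7 with Baf53b siRNA. Dusp6, a phosphatase of ERK, had a mean of 11.5 FPKM and was highest in Baf53b siRNA replicate 1 at 16.0 FPKM and at 9.62 FPKM in the other library of that group.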

How the data were processed

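RNA selected with oligo-dT beads was sequenced from both ends after a stranded library preparation, per the labels' protocols. The build mm10 and the tools TopHat2 2.1.1, Cufflinks 2.2.1 and bcl2fastq 2.19.1.403 are listed, per the submitters' processing notes; which annotation release served is not given in the sources used here. In 1 table per library the authors deposited FPKM per gene with the bounds of a confidence interval, per the file headers. Rows of 92 synthetic spike-ins were left out, several rows of a gene ID were summed (48 IDs), and 4 genes with a failed estimate were dropped. Implied fragments take the half-width of the interval as 2 standard errors of a count. GENCODE M21, on the same build, gave gene types and transcripts.

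Genes with a mean of at least 1 FPKM were tested as log2(FPKM + 1), leaving out 354 small RNA genes, in R 4.3.3 by limma 3.58.1 (trended eBayes, group means over all 6 libraries, 3 residual degrees of freedom, prior 3.99, two-sided, Benjamini-Hochberg over 14663 genes, threshold 0.05). The fit was checked on simulated data. A vault RNA gene was added to those left out after the first fit, with no change in the number of calls. Python 3.11.15 with pandas 2.3.3 was used for the other steps. Pathway genes named are those past the threshold and, per list and comparison, the 2 with the smallest unadjusted p. For likeness, the 3 protein-coding genes at 5 FPKM or more with the highest correlation were named. The members and the lists were chosen with earlier results of these data known. Alternatives covered pseudocount, filters, scaling, the replicate block, the variance model and leaving out each library. No protein sequences were used here. Some genes of the lists are not reported here.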

Additional observations from a re-analysis of the deposited data

How the results depend on the processing

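None of the 5 tested genes passed the threshold in any of the 249 alternative values computed for them (smallest limma adjusted p = 0.665), and 21 of these changed sign. The Ntrk2 difference between scrambled siRNA and control, 0.02 as reported, was -0.0167 with upper quartile scaling, -0.0329 with median ratio scaling, -0.0384 with quantile normalization and -0.0436 when scaled to genes outside the mitochondrial chromosome, where that of Sort1 was -0.00143. Leaving out each library in turn (the lone library of a group is assumed to vary like the others) gave ranges across 0 for Bdnf (-0.261 to 0.126), Ntrk3 (-0.106 to 0.211) and Sort1 (-0.217 to 0.0287) in Baf53b siRNA against scrambled siRNA, for Ntrk3 (-0.0331 to 0.318) and Sort1 (-0.157 to 0.0889) in Baf53b siRNA against control, and for Ntrk2 (-0.0651 to 0.102), Ntrk3 (-0.0859 to 0.265) and Sort1 (-0.0553 to 0.176) in scrambled siRNA against control; fewer libraries entered these fits, and the cause of the other changes was not tested. Other values shrank without changing sign: Ntf3 in Baf53b siRNA against control to -0.0202 without Baf53b siRNA replicate 1, Bdnf in scrambled siRNA against control to -0.0211 without scrambled siRNA replicate 1, and Ntrk2 in Baf53b siRNA against control to 0.0526 without control replicate 1. A pseudocount of 0.1 moved Ntf3 to -0.488 in Baf53b siRNA against scrambled siRNA, and Ngfr to -0.219 (Baf53b siRNA against control) and -0.129 (scrambled siRNA against control). A minimum of 5 FPKM left 3 of the genes to test, without Bdnf and Ntf3.

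The number of all genes called ranged from 0 to 30 (18 as reported) for Baf53b siRNA against scrambled siRNA, from 34 to 188 (181) for Baf53b siRNA against control and from 0 to 7 (0) for scrambled siRNA against control. It was 0, 42 and 0 without the filter on low values, and 34 for Baf53b siRNA against control without Baf53b siRNA replicate 1. The labels tie the replicate numbers to no shared animal, batch or day, so the libraries were not taken as paired, but deviations of same-numbered libraries correlated at 0.390 (control and scrambled siRNA), 0.185 (control and Baf53b siRNA) and 0.362 (scrambled siRNA and Baf53b siRNA). With the replicate block, 0 of the 5 genes were called, the SE was 0.08 for Ntrk3 and 0.08 for Sort1 (Ntrk3 in Baf53b siRNA against control 0.14, limma adjusted p = 0.831), and 13, 188 and 0 of all genes were called. Depth limits Ngfr and Ntf3 most, with as few as 9 and 20 implied fragments.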
